A study of Mus musculus with 16 samples.

Results

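The 9 genes described here encode the myosin of the working heart muscle cell and the kinases that phosphorylate it. They are the heavy chain genes Myh6, Myh7 and Myh7b, the light chain genes Myl2, Myl3, Myl4 and Myl7, and the light chain kinase genes Mylk3 and Mylk4. They were chosen by name and not by a cut on any measured value, with earlier results of these data known. They are 9 of the 55573 genes in the count table. Of these 9, 8 passed the filter on low counts, and Myl7 did not.

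The 16 libraries came from hearts of 16 mice that had received an adeno-associated virus of serotype 9 (AAV9) as wild-type pups on postnatal day 1, by subcutaneous injection. The virus carried either GFP or full-length Cardinal, a long noncoding RNA annotated as Gm12295 in the mouse, and in both cases a cardiac troponin T promoter directed expression of the cargo to cardiomyocytes. Adult mice then had transverse aortic constriction (TAC), which narrows the aorta and raises the load on the left ventricle, or a sham operation without ligation, and hearts were taken 4 weeks later. The question was whether added Cardinal changes the response of the heart to pressure overload. The design therefore crosses 2 viruses with 2 operations, with 4 mice in each of the 4 groups. All groups carried a virus, so there was no group without one. RNA came from the apex of the heart, was selected for poly(A) and was read as single 50-base reads. Library totals ran from 16441997 to 21904589 counts with a median of 21723766, and mitochondrially encoded genes took 30.35% to 34.02% of the counts. Gm12295 lay between 3.42 and 7.24 CPM (counts scaled to a common library size) in the 8 AAV9-GFP hearts and between 18.3 and 93.9 CPM in the 8 AAV9-Cardinal hearts, so the delivered gene followed the labels in every mouse. The Cardinal cargo and the host transcript share a row in the table.

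Each myosin molecule of the thick filament is built from a pair of heavy chains, each carrying an essential and a regulatory light chain at its neck. The heavy chain holds the motor that splits ATP and pulls on actin. In the mouse the adult ventricle runs mainly on the fast alpha heavy chain (Myh6), whereas the slow beta chain (Myh7) dominates before birth, and a shift from Myh6 towards Myh7 under overload is a classic sign of hypertrophy in rodents. Myl2 and Myl3 are the regulatory and essential light chains of the ventricle, and Myl7 and Myl4 are those of the atria. Mylk3 is the kinase that phosphorylates Myl2 in cardiomyocytes, and Mylk4 is a related kinase of striated muscle.

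In the mouse genome (build GRCm38, GENCODE M21 annotation) the alpha and beta heavy chain genes are neighbours on the minus strand of chromosome 14. Myh6 (ENSMUSG00000040752) occupies chr14:54941921-54966927 and Myh7 (ENSMUSG00000053093) occupies chr14:54970684-54994626. Myh7b (ENSMUSG00000074652) lies apart on the plus strand at chr2:155611212-155634307. The light chain genes are scattered, with Myl2 (ENSMUSG00000013936) at chr5:122100951-122113472 and Myl3 (ENSMUSG00000059741) at chr9:110741861-110769798, both on the plus strand. The atrial genes share a chromosome, with Myl4 (ENSMUSG00000061086) on the plus strand at chr11:104550663-104595753 and Myl7 (ENSMUSG00000020469) on the minus strand at chr11:5896637-5898782. The kinase genes Mylk3 (ENSMUSG00000031698) and Mylk4 (ENSMUSG00000044951) lie on minus strands, at chr8:85324303-85386345 and chr13:32700834-32783954.

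Each heavy chain gene also hosts a microRNA in an intron, a feature shared by these 3 genes that the choice by name did not use. The mature strands below are from RefSeq (GRCm38.p6), 5′ to 3′, with the seed (bases 2 to 8) in capitals. They are shown because the host genes differ widely in level while the seeds are nearly the same.
mmu-miR-208a-3p: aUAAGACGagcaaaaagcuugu
mmu-miR-208b-3p: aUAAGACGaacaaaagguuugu
mmu-miR-499-5p: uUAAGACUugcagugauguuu
The first is encoded in intron 29 of Myh6 (chr14:54949072-54949093), the second in intron 31 of Myh7 (chr14:54975710-54975731) and the last in intron 19 of Myh7b (chr2:155622893-155622913). miR-208a-3p and miR-208b-3p share the seed UAAGACG and differ by the substitutions G10A, A16G and C18U, counted from 1 at the 5′ end of miR-208a-3p. The seed of miR-499-5p is UAAGACU. Mature microRNAs carry no poly(A) tail and were not measured by these libraries. Over all 16 mice the rows of the table for Mir208a, Mir208b and Mir499 held 64, 959 and 3 counts.

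The coding sequences of Myh6 (5814 bases, 39 exons) and Myh7 (5805 bases, 41 exons) are close enough to matter for reads of 50 bases. In their alignment 5320 of 5817 columns were identical (91.46%), and 26 identical runs of at least 50 bases held 2647 bases. The longest run, 245 bases, is printed from the annotated transcripts with 10 bases on each side, 5′ to 3′, with the identical run in capitals, because a 50-base read from inside it could have come from either gene.
Myh6: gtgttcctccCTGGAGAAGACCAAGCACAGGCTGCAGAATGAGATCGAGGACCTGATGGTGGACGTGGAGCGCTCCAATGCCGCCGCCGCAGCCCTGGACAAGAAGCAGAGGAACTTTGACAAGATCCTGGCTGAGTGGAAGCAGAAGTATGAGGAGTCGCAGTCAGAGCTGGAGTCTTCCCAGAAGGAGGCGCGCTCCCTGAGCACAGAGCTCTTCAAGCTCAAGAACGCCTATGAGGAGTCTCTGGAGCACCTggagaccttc
Myh7: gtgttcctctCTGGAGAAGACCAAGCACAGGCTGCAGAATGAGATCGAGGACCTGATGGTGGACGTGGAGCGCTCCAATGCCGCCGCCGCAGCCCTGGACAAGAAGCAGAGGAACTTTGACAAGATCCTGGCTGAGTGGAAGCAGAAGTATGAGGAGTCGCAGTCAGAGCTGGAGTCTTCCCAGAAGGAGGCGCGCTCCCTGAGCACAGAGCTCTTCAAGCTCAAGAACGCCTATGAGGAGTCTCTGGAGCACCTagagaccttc
In Myh6 the stretch covers the end of exon 30 and the start of exon 31 (chr14:54948612-54948735 and chr14:54948317-54948457). In Myh7 it covers parts of exons 32 and 33 (chr14:54975234-54975357 and chr14:54974937-54975077). Of 117 steps of 50 columns along the alignment, 27 were identical throughout, and the least alike full step (columns 1851 to 1900) was 56% identical. Of all 50-base stretches in Myh6 exons, 20.16% occur in Myh7, and of those in Myh7 15.59% occur in Myh6. How reads matching several places were counted is not given in the sources used here, so the Myh7 and Myh6 values below carry this uncertainty, and its part in them was not tested.

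**Figure D1:**
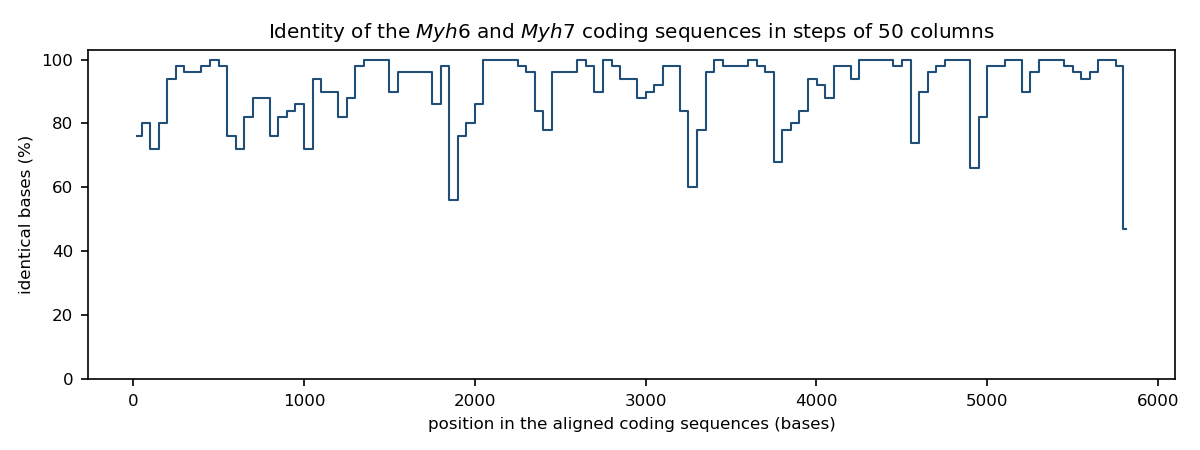
Percent of identical bases between the aligned Myh6 and Myh7 coding sequences (vertical axis) in steps of 50 columns from the start codon (horizontal axis, columns). 27 of the 117 steps are at 100%, and the lowest full step is at 56%.

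Levels were compared between genes as CPM per kilobase of the longest coding transcript, averaged over the 16 mice. On this scale Myl2 was the most abundant (4966), followed by Myh6 (2956) and Myl3 (2748). Myh7 came next at 547.1, then the kinases Mylk3 (94.5) and Mylk4 (54.86), and Myh7b at 16.38. The atrial chains were at the bottom, Myl4 at 1.10 and Myl7 at 0.0499. The order at the top depends on the length used: per kilobase of all annotated exons Myh6 (2687) lay above Myl2 (2264) and Myl3 (1260). Myh6 and Myl3 are neighbours whose spreads meet per kilobase of coding transcript, since the AAV9-GFP TAC hearts had 2508 ± 301.8 for Myh6 and 2654 ± 209.3 for Myl3 (SD, n = 4). Together the 9 genes took 2.51% to 3.24% of all counts of a library.

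**Figure D2:**
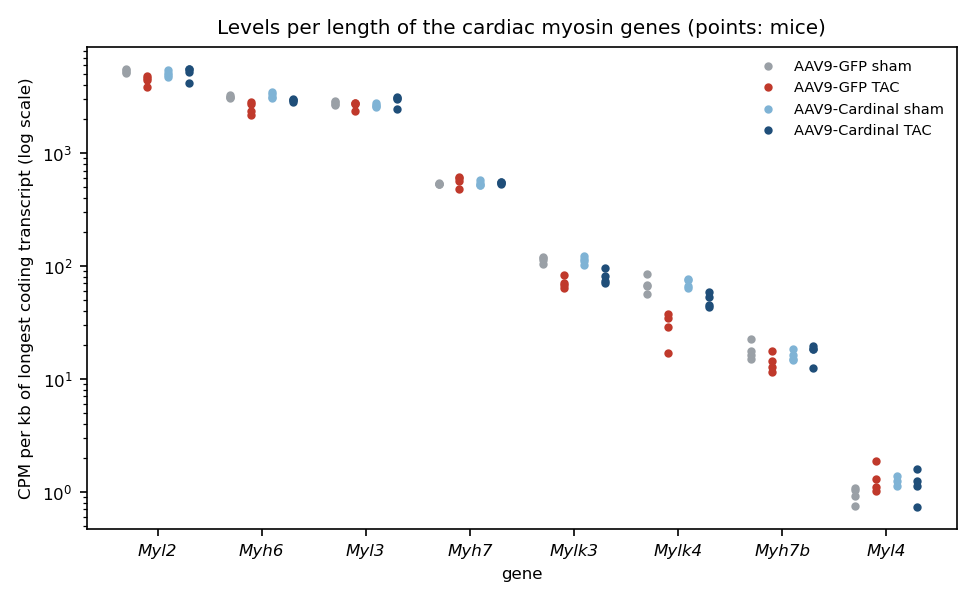
Level of 8 myosin genes in each mouse as CPM per kilobase of the longest coding transcript (logarithmic axis), coloured by group. Myl7 is left out, as is the 1 mouse with no Myl4 count. The ventricular chains and Myh6 lie at the top, near 2956 for Myh6, and Myl4 lies near 1.10.

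The ventricular light chains far exceeded the atrial ones. Myl4 held between 15 and 41 counts per library in 15 mice and 0 in AAV9-Cardinal sham replicate 3. Myl7 held 11 counts (0.472 CPM) in AAV9-GFP TAC replicate 1 and 0 in the other 15 mice. For counting error alone, a count of 0 allows up to 3 counts, or 0.126 to 0.195 CPM. This limit may not hold here, since 147 tested genes were at 0 in some mice and at 10 counts or more in all others. The cause of such zeros was not tested. Of the 8 other atrial markers, Sln and Mybphl were each at 0 in 15 mice and Bmp10 in 13 mice, whereas the other 5 were detected in all 16 mice. Of those, Gja5 (3.21 to 5.15 CPM), Nr2f1 (1.56 to 3.261 CPM) and Dkk3 (0.714 to 5.45 CPM) were low, and Kcnj3 (21.5 to 86.9 CPM) and Nppa were higher. The ventricular markers Irx4, Hey2 and Gja1, with a summed level of 159.3 to 365 CPM, were present in all groups, and none of the 3 passed the test for TAC in either virus group. After TAC with AAV9-GFP, 2 of the 5 tested atrial markers were higher and 1 lower, against 17.4% of all genes called. Nppa, which encodes atrial natriuretic peptide and is switched on in the stressed ventricle, rose from 61.3 to 734.2 CPM (log2 3.58, edgeR adjusted p = 8.1e-05), and Dkk3 from 1.02 to 3.71 CPM (log2 1.86, edgeR adjusted p = 0.0010). Kcnj3, a potassium channel gene, fell from 72.1 to 31.7 CPM (log2 −1.19, edgeR adjusted p = 0.0020). With AAV9-Cardinal, Nppa was higher (log2 1.92, edgeR adjusted p = 0.014) and Kcnj3 lower (log2 −0.79, edgeR adjusted p = 0.046).

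Myh6 fell after TAC in AAV9-GFP hearts and Myh7 did not pass the test in any comparison. Myh6 was at 19320, 19030, 18660 and 19790 CPM in AAV9-GFP sham replicates 1 to 4, and at 17240, 13310, 16500 and 14270 CPM in AAV9-GFP TAC replicates 1, 3, 4 and 7. The 2 groups did not overlap, and TAC replicate 3 was lowest. The fall was 1.25-fold (log2 −0.32, SE 0.068, edgeR adjusted p = 0.0042, exact permutation p = 0.029). In AAV9-Cardinal hearts Myh6 was at 18800, 21220, 18980 and 20470 CPM in sham replicates 1 to 4 and at 17200, 18430, 18000 and 17900 CPM in TAC replicates 1, 4, 5 and 6. These groups did not overlap either, although the gap between 18430 and 18800 was small beside their spread. The difference was less than in AAV9-GFP hearts and missed the threshold over all genes (log2 −0.15, SE 0.068, edgeR adjusted p = 0.21, exact permutation p = 0.029). Here 0.029 is the smallest p that 70 labelings of 4 against 4 mice can give. In a bulk library a fall of a cardiomyocyte transcript can come from fewer cardiomyocytes or from less of the transcript in each, and these cannot be told apart.

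Myh7, the slow beta chain, had similar means in the 4 groups on this scale. It was at 3363, 3315, 3329 and 3337 CPM in AAV9-GFP sham hearts and at 3731, 3786, 2993 and 3535 CPM in AAV9-GFP TAC hearts. The sham mice lay within a very narrow band, and the TAC mice lay on both sides of it, 3 above and replicate 4 below. The log2 difference was 0.07 (SE 0.060, edgeR adjusted p = 0.46). Without AAV9-GFP TAC replicate 4, the TAC mouse below the sham band, it was 0.15 and passed (edgeR adjusted p = 0.028). It did not pass in the other 15 fits that left out 1 mouse (log2 down to 0.04, edgeR adjusted p up to 0.77). In AAV9-Cardinal hearts Myh7 ran from 3237 to 3606 CPM in sham and from 3313 to 3477 CPM in TAC (log2 0.01, SE 0.060, edgeR adjusted p = 0.93).

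These values rest on scaling each library by trimmed mean of M-values (TMM), which sets the typical gene at no change. AAV9-GFP TAC libraries had scaling factors of 1.053 to 1.089 and AAV9-GFP sham libraries 0.940 to 0.977. With library totals alone, an alternative chosen after seeing the data, the TAC difference of the median gene with AAV9-GFP moved up by 0.16 (log2), and the calls of the heavy chains changed places. Myh7 then passed as higher (log2 0.23, edgeR adjusted p = 0.015) and Myh6 no longer passed (log2 −0.17, edgeR adjusted p = 0.057). The TMM values are therefore changes relative to the typical gene. In AAV9-Cardinal hearts the same switch moved the median gene by 0.03.

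The ratio of Myh7 to Myh6 is taken within a library and does not depend on that scaling. Per kilobase of coding transcript, Myh7 stood at 17.1%, 17.1%, 17.5% and 16.5% of Myh6 in AAV9-GFP sham replicates 1 to 4. In AAV9-GFP TAC replicates 1, 3, 4 and 7 it stood at 21.2%, 27.9%, 17.8% and 24.3%. All 4 TAC mice were above all 4 sham mice, but replicate 4 cleared the highest sham mouse only narrowly and replicate 3, with the lowest Myh6, was far above. The group means were 17.1% ± 0.393 and 22.8% ± 4.32 (SD, n = 4), a 1.32-fold difference (log2 0.40, SE 0.14, exact permutation p = 0.029). Without any 1 of the 4 sham mice, the groups still did not overlap and the exact permutation p was 0.057. Without any 1 of the 4 TAC mice it was 0.029. The log2 difference ran from 0.30 to 0.51. Groups of unequal size have other labelings, so these p-values are not directly comparable with that of 4 against 4.

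In AAV9-Cardinal hearts the same ratio was 17.0%, 16.7%, 16.7% and 16.3% after sham surgery and 19.3%, 18.5%, 18.1% and 19.1% after TAC. Again the groups did not overlap, and the TAC mice were close together. The means were 16.7% ± 0.297 and 18.7% ± 0.572 (SD, n = 4), a 1.12-fold difference (log2 0.17, SE 0.026, exact permutation p = 0.029). Adjusted over the 30 ratio tests made, the permutation p was 0.17 for the TAC difference in each virus group, and neither passed. Both were already at 0.029, the smallest p that 70 labelings can give. A ratio at that floor could pass the adjustment only if many other ratios were there too, so this step cannot decide.

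Between the viruses the ratio overlapped. TAC hearts with Cardinal had the lower mean (log2 −0.27, SE 0.14, exact permutation p = 0.14), and AAV9-GFP TAC replicate 4, at 17.8%, was below all 4 AAV9-Cardinal TAC hearts. It was the only AAV9-GFP TAC heart not above all AAV9-Cardinal TAC hearts, so leaving it out necessarily separated the groups (log2 −0.38, exact permutation p = 0.029). Of 8 such omissions this was the 1 with a p under 0.05, and the exact permutation p ran up to 0.23. Sham hearts of the 2 viruses differed by −0.03 (SE 0.021, exact permutation p = 0.23). The difference in TAC response between the viruses was −0.23 (SE 0.14, exact permutation p = 0.18 over 4900 labelings), and −0.35 (exact permutation p = 0.029) without AAV9-GFP TAC replicate 4. Among 16 omissions of 1 mouse, no other gave a p under 0.05 for this difference (exact permutation p up to 0.36).

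**Figure D3:**
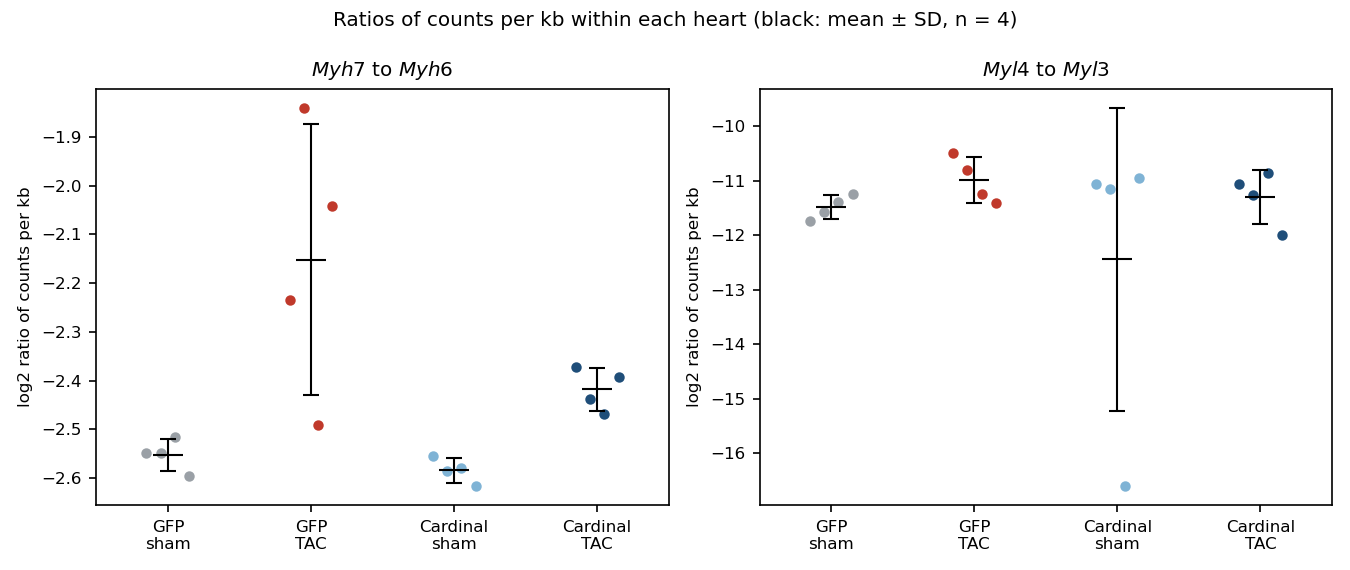
Log2 ratio of Myh7 to Myh6 and of Myl4 to Myl3 in each mouse (counts per kilobase of coding transcript, with 0.5 counts added to each gene in the Myl4 ratio), by group. AAV9-GFP TAC hearts are the most spread for Myh7 to Myh6, with replicate 4 nearest the sham hearts, and AAV9-Cardinal sham replicate 3, with 0 Myl4 counts, stands far below the rest at −16.6.

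Myh7b, an ancient heavy chain gene best known as the host of miR-499, did not pass in any comparison. It ran from 92.6 to 138.5 CPM in AAV9-GFP sham hearts, from 70.9 to 109.5 CPM in AAV9-GFP TAC hearts, and with AAV9-Cardinal from 91.4 to 114.3 CPM after sham surgery and from 77.6 to 121.8 CPM after TAC. The groups overlapped. The TAC difference was −0.34 with AAV9-GFP (SE 0.158, edgeR adjusted p = 0.16) and 0.09 with AAV9-Cardinal (SE 0.157, edgeR adjusted p = 0.80).

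Of 7 rows that overlap the Myh6 or Myh7 gene, all noncoding except Gm17428, Mhrt and Gm31251 fell after TAC in both virus groups. Mhrt, a long noncoding RNA transcribed antisense to Myh7, fell from 173.7 ± 13.6 to 90.2 ± 31.4 CPM in AAV9-GFP hearts (SD, n = 4, log2 −0.95, SE 0.177, edgeR adjusted p = 0.0019) and from 185.3 ± 21.9 to 117.6 ± 8.73 CPM in AAV9-Cardinal hearts (log2 −0.66, SE 0.176, edgeR adjusted p = 0.040). Gm31251, whose exons also overlap Myh7, fell by 0.75 (edgeR adjusted p = 0.0032) and 0.76 (edgeR adjusted p = 0.010) on the log2 scale. The Mir208b row fell from 3.36 to 1.72 CPM in AAV9-GFP hearts (edgeR adjusted p = 0.010) and went from 3.94 to 2.36 CPM in AAV9-Cardinal hearts (edgeR adjusted p = 0.065). Gm49130, Gm29015 and Gm17428 had lower means after TAC in both virus groups and did not pass (edgeR adjusted p from 0.12 to 0.81), and Mir208a was too low to test. Mhrt shares 484 exonic bases with Myh7 (5.62% of its exons) and Gm31251 shares 523 (6.07%). Whether counting used strand is not given in the sources used here, and without strand, reads from overlapping sense and antisense exons cannot be told apart.

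The ventricular regulatory light chain Myl2 was lower after TAC in AAV9-GFP hearts, at the edge of the threshold. It was at 4607, 4911, 4840 and 4520 CPM in sham replicates 1 to 4 and at 3922, 3384, 4109 and 4250 CPM in TAC replicates 1, 3, 4 and 7. No TAC mouse reached the lowest sham mouse, and the difference was 1.21-fold (log2 −0.27, SE 0.087, edgeR adjusted p = 0.045, exact permutation p = 0.029). In AAV9-Cardinal hearts Myl2 was at 4320, 4591, 4216 and 4824 CPM after sham surgery and at 3673, 4882, 4645 and 4941 CPM after TAC. There the TAC group held both the lowest heart of the 8, replicate 1, and the 2 highest (log2 0.02, SE 0.087, edgeR adjusted p = 0.95). The Myl2 call with AAV9-GFP was lost in 11 of the 16 fits that left out 1 mouse (edgeR adjusted p from 0.010 to 0.15, highest without AAV9-GFP TAC replicate 3), and with library totals alone (log2 −0.11, edgeR adjusted p = 0.28).

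Myl3, the ventricular essential chain, was called in neither virus group. In AAV9-GFP hearts it ran from 2486 to 2686 CPM after sham surgery and from 2196 to 2625 CPM after TAC (log2 −0.06, SE 0.072, edgeR adjusted p = 0.65), and the sign turned with library totals alone (0.10). In AAV9-Cardinal hearts it ran from 2392 to 2621 CPM after sham surgery and from 2299 to 2926 CPM after TAC (log2 0.13, SE 0.072, edgeR adjusted p = 0.33). AAV9-Cardinal TAC replicate 1 was again the low mouse, and without it the difference was 0.20 and passed (edgeR adjusted p = 0.040). None of the other 15 fits that left out 1 mouse passed (edgeR adjusted p up to 0.57). Ventricular light chains over heavy chains, per kilobase, differed by 0.07 and 0.17 after TAC with AAV9-GFP and AAV9-Cardinal (exact permutation p = 0.49 and p = 0.11).

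Myl7 was too low to test, and Myl4 did not pass in any comparison. Myl4 was at 0.709, 0.864, 0.980 and 1.03 CPM in AAV9-GFP sham hearts and at 1.76, 1.22, 1.05 and 0.957 CPM in AAV9-GFP TAC hearts, where replicate 1 was highest and replicate 7 lay within the sham range (log2 0.48, SE 0.48, edgeR adjusted p = 0.56). In AAV9-Cardinal hearts it was at 1.18, 1.07, 0 and 1.298 CPM after sham surgery and at 1.06, 1.18, 1.49 and 0.691 CPM after TAC. Relative to the ventricular pair, the atrial pair made up 0.0104% to 0.0149% in AAV9-GFP sham hearts and 0.0142% to 0.0382% in AAV9-GFP TAC hearts, per kilobase with 0.5 counts added. Those groups overlapped (log2 0.74, SE 0.34, exact permutation p = 0.057), and without AAV9-GFP TAC replicate 7 they did not (log2 0.93, exact permutation p = 0.029). Leaving out each mouse in turn, the exact permutation p ran from 0.029 to 0.17. The highest value, 0.0382%, includes the 11 Myl7 counts of AAV9-GFP TAC replicate 1. Myl4 to Myl3 alone differed by 0.50 (SE 0.23, exact permutation p = 0.14). In AAV9-Cardinal hearts the atrial to ventricular difference of 0.89 had an SE of 1.08 (exact permutation p = 0.60), since it rests on the sham mouse with 0 Myl4 counts. Without that mouse it was −0.16, and the difference in response between the viruses was −0.90 (exact permutation p = 0.041). Among 16 omissions of 1 mouse, no other gave a p under 0.05 for that difference in response (exact permutation p up to 0.998). At 15 to 41 counts per library, the depth leaves changes of this size at the limit of what can be seen. Why AAV9-Cardinal sham replicate 3 held 0 Myl4 counts was not tested.

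The light chain kinases showed the largest differences among the 9 genes. Mylk3 was at 444.5, 420.2, 435.4 and 385.6 CPM in AAV9-GFP sham hearts and at 305.5, 249.0, 259.1 and 236.1 CPM in AAV9-GFP TAC hearts. The lowest sham mouse was well above the highest TAC mouse, and Mylk3 fell 1.61-fold (log2 −0.68, SE 0.094, edgeR adjusted p = 2.0e-04). In AAV9-Cardinal hearts it was at 380.8, 451.6, 423.5 and 411.5 CPM after sham surgery and at 351.3, 299.4, 263.4 and 271.2 CPM after TAC. Here too the groups did not overlap, with TAC replicate 1 closest to the sham mice, and Mylk3 fell 1.41-fold (log2 −0.49, SE 0.094, edgeR adjusted p = 0.0078). Mylk3 was the only one of the 8 tested genes called in both virus groups. The ratio of Mylk3 to its substrate Myl2, taken within a library, differed by −0.41 in AAV9-GFP hearts (SE 0.12, exact permutation p = 0.029) and by −0.51 in AAV9-Cardinal hearts (SE 0.20, exact permutation p = 0.086).

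Mylk4 was at 317.1, 367.5, 376.7 and 474.3 CPM in AAV9-GFP sham hearts and at 161.6, 94.2, 193.4 and 210.2 CPM in AAV9-GFP TAC hearts. TAC replicate 3, the mouse with the lowest Myh6 and the highest Myh7 to Myh6 ratio, was also lowest here. Mylk4 fell 2.33-fold (log2 −1.22, SE 0.195, edgeR adjusted p = 6.5e-04). In AAV9-Cardinal hearts it was at 370.6, 354.7, 428.6 and 423.0 CPM after sham surgery and at 242.1, 331.1, 295.2 and 249.7 CPM after TAC. Those groups did not overlap (exact permutation p = 0.029), but the difference of −0.50 missed the threshold over all genes (SE 0.192, edgeR adjusted p = 0.14). It passed in 1 of 7 other settings, the fit of those 8 mice alone (edgeR adjusted p = 0.032, up to 0.25 in the others). It also passed in 1 of 16 fits that left out 1 mouse, AAV9-GFP TAC replicate 3 (edgeR adjusted p = 0.038, otherwise up to 0.29). That mouse is in neither of the groups compared.

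**Figure D4:**
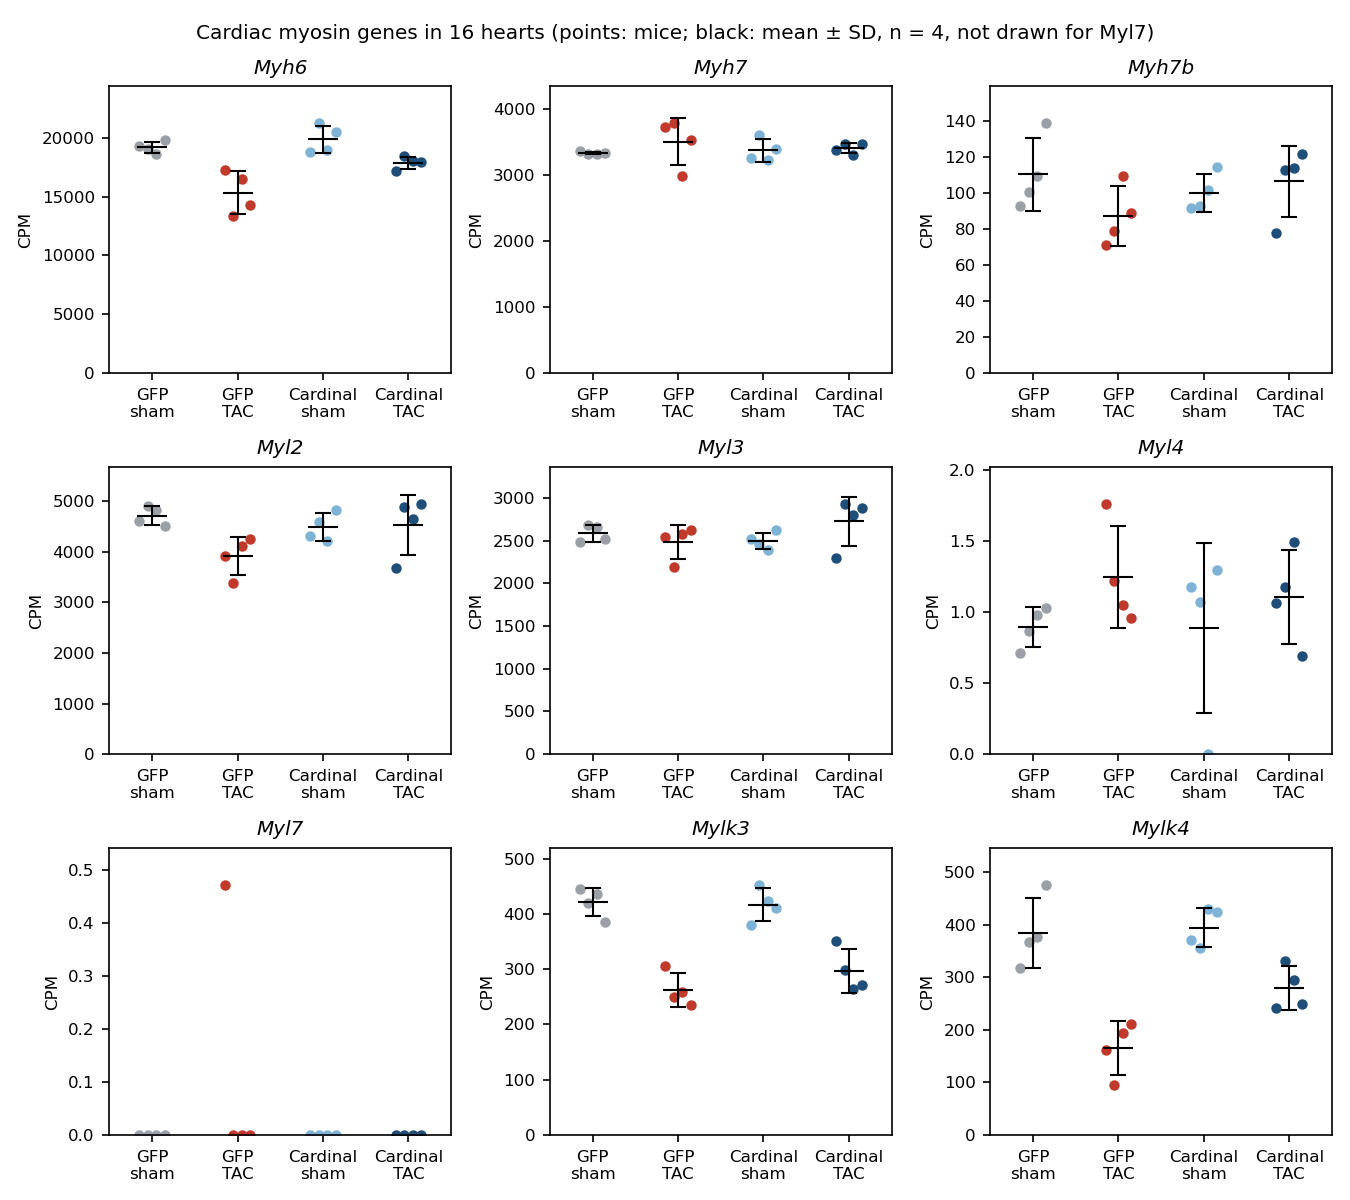
Level of each of the 9 genes in CPM (vertical axes, from 0) in every mouse, by group. Black marks give the mean ± SD of 4 mice, not drawn for Myl7. Mylk3 and Mylk4 separate TAC from sham in both virus groups, whereas Myh7 stays between 2993 and 3786.

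Counted over the 8 tested genes, 0 were higher and 4 lower after TAC in AAV9-GFP hearts, namely Myh6, Myl2, Mylk3 and Mylk4. Of all 16857 genes tested, 17.4% were called in that comparison, 8.49% as higher and 8.92% as lower. The same 4 genes were those without overlap between the groups, against 20.3% of all genes. The median log2 difference of the 8 was −0.30, against 0.01 for all genes and −0.13 for genes averaging 100 CPM or more. With library totals alone the calls among the 8 were 1 higher and 2 lower, and among all called genes the share called higher was 86.1% in place of 48.8%. DESeq2 called 0 as higher and 4 as lower.

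In AAV9-Cardinal hearts 0 were higher and 1, Mylk3, was lower, by edgeR and by DESeq2. Of all genes 6.48% were called, 3.10% as higher and 3.38% as lower. At an unadjusted p under 0.05 edgeR gave 3 of the 8, against 21.8% of all genes. Groups did not overlap for Myh6, Mylk3 and Mylk4, against 13.7% of all genes. The median log2 difference of the 8 was 0.01, against 0.00 for all genes and −0.01 for genes of at least 100 CPM.

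Between the viruses in TAC hearts, edgeR called 0 of the 8 genes, against 0.101% of all genes. At an unadjusted p under 0.05 it gave 3, against 2528 of all 16857 genes. The median log2 difference of the 8 was 0.19, against −0.01 for all genes and 0.10 for genes of at least 100 CPM, and 6 of the 8 were higher with Cardinal. Mylk4 was the 1 gene whose groups did not overlap, 242.1 to 331.1 CPM with Cardinal against 94.2 to 210.2 CPM with GFP, a 1.70-fold difference (log2 0.76, SE 0.193, edgeR adjusted p = 0.098, exact permutation p = 0.029). Of all genes 6.77% had no overlap. Myh6 differed by 0.22 (SE 0.068, edgeR adjusted p = 0.15), with AAV9-GFP TAC replicate 1 inside the AAV9-Cardinal range, and Myl2 by 0.21 (SE 0.087, edgeR adjusted p = 0.27). DESeq2 called 447 genes in all and 2 of the 8, Mylk4 (0.76, adjusted p = 0.0052) and Myh6 (0.22, adjusted p = 0.036). Without AAV9-Cardinal TAC replicate 1, edgeR called Mylk4 (0.83, adjusted p = 0.047) and Myl2 (0.30, adjusted p = 0.031), and called 535 genes in all in place of 17. None of the other 15 fits that left out 1 mouse called either gene (edgeR adjusted p up to 0.32 for Mylk4 and 0.59 for Myl2).

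In sham hearts the viruses differed by −0.14 to 0.05 on the log2 scale over the 8 genes. edgeR called 0 of them, with 0 at an unadjusted p under 0.05, and DESeq2 called 0. Of all genes 0.0119% were called, and 2.36% had groups without overlap, among them 0 of the 8.

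The difference in TAC response was tested directly as the TAC difference with AAV9-Cardinal minus that with AAV9-GFP. Here edgeR and DESeq2 each called 0 of the 8, and 0.0119% of all genes were called by edgeR. At an unadjusted p under 0.05 edgeR gave 2 of the 8, against 10.2% of all genes. The largest difference was that of Mylk4 (0.72, SE 0.272, edgeR adjusted p = 0.39, exact permutation p = 0.053), followed by Myh7b at 0.43 (SE 0.223, edgeR adjusted p = 0.52) and Myl2 at 0.28 (SE 0.123, edgeR adjusted p = 0.45, exact permutation p = 0.057). The kinase Mylk3 stood at 0.19 (SE 0.132, edgeR adjusted p = 0.65). Thus genes called with AAV9-GFP and not with AAV9-Cardinal were not shown to respond differently under the 2 viruses.

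**Figure D5:**
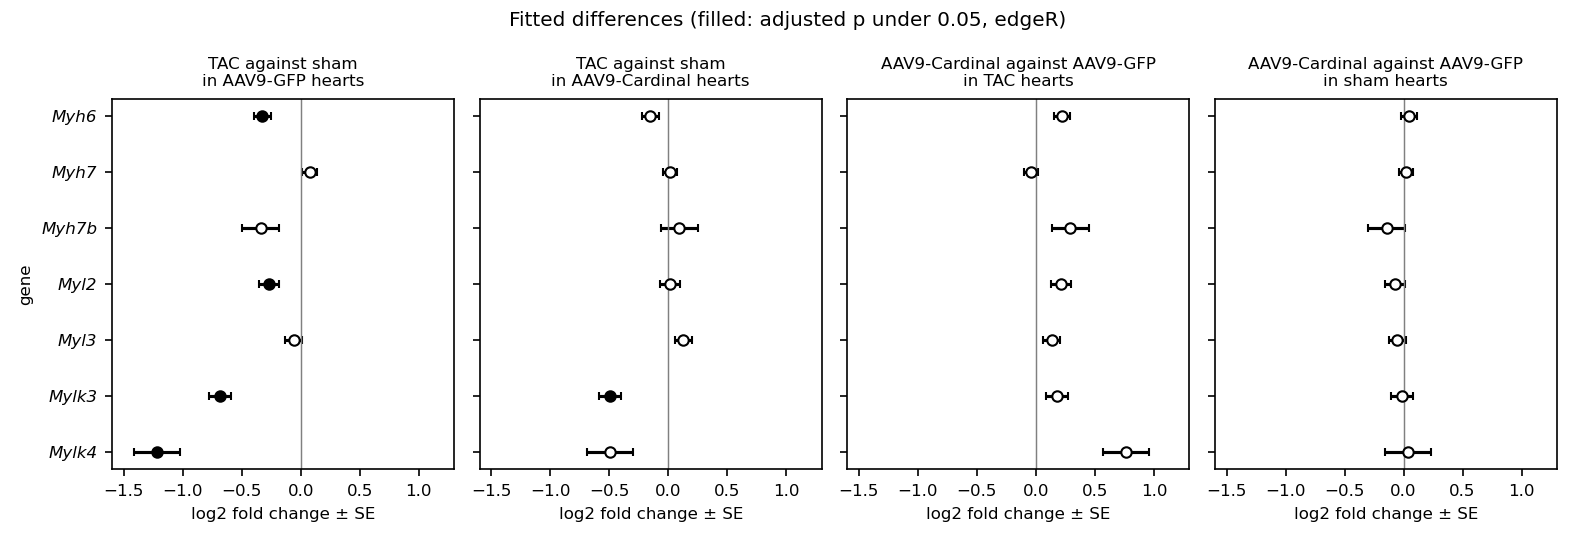
Log2 fold change ± SE from the edgeR fit for 7 genes in 4 comparisons (horizontal axis, log2), with filled points where the adjusted p is under 0.05. The filled points are Myh6, Myl2, Mylk3 and Mylk4 for TAC with AAV9-GFP and Mylk3 for TAC with AAV9-Cardinal. Myl4 and Myl7 are not drawn.

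Other myosins of striated muscle were low in these hearts. Among all genes, 17.4% were called after TAC with AAV9-GFP and 6.48% with AAV9-Cardinal. Of 11 genes 4 could be tested, and 1 was higher and 0 lower after TAC in each virus group. That gene was Myl1, an essential light chain of embryonic and fast skeletal muscle, which rose from 18.9 to 29.0 CPM with AAV9-GFP (log2 0.62, SE 0.16, edgeR adjusted p = 0.017) and from 15.99 to 25.9 CPM with AAV9-Cardinal (log2 0.70, SE 0.17, edgeR adjusted p = 0.024). The fast skeletal heavy chains Myh1, Myh2 and Myh4 were at 0 counts in all 16 mice. The skeletal muscle marker list, which includes Myh4, summed to 0.398 to 2.46 CPM, with Tnnc2 and Actn3 at 0.

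Among the 8 smooth muscle and nonmuscle myosin genes, 3 of 7 tested were higher and 1 lower after TAC in each virus group. The shares of all genes called were 17.4% with AAV9-GFP and 6.48% with AAV9-Cardinal. Myh10, a nonmuscle heavy chain, rose from 27.4 to 38.4 CPM with AAV9-GFP (log2 0.49, edgeR adjusted p = 0.0030) and from 26.7 to 38.8 CPM with AAV9-Cardinal (log2 0.54, edgeR adjusted p = 0.0064). The nonmuscle light chains Myl12a and Myl6 rose as well. Myl12a rose by 0.47 (edgeR adjusted p = 0.0064) and 0.39 (edgeR adjusted p = 0.043) on the log2 scale, and Myl6 by 0.30 (edgeR adjusted p = 0.0042) and 0.22 (edgeR adjusted p = 0.049). Myh14, a further nonmuscle heavy chain, fell by 0.26 (edgeR adjusted p = 0.015) and 0.35 (edgeR adjusted p = 0.0078). Summed fibroblast markers were higher in AAV9-GFP TAC (700.8 to 882.8 CPM) than in AAV9-GFP sham hearts (467.7 to 528.6 CPM), with 3 of 5 called, and summed endothelial markers were 448.5 to 528.2 against 382.9 to 466.7 CPM, with 1 of 4 called. With AAV9-Cardinal 0 of these 9 markers were called, with summed fibroblast markers of 458.8 to 813.5 CPM after TAC and 452.1 to 499.8 CPM after sham surgery. The part of these cell types in the nonmuscle myosin differences was not tested.

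Of the 10 genes of the remaining light chain kinases and the myosin phosphatase, 9 were tested, and 1 was lower and 0 higher after TAC with AAV9-GFP. The share of all genes called with AAV9-GFP was 17.4%. With AAV9-Cardinal edgeR called 0, with 3 at an unadjusted p under 0.05, against 21.8% of all genes. The 1 was Ppp1cb, the catalytic subunit of myosin phosphatase, at 290.2 and 261.6 CPM (log2 −0.15, edgeR adjusted p = 0.018), a change no larger than the 0.16 by which the choice of scaling moved the median gene. With AAV9-Cardinal it was at 289 and 294.4 CPM (edgeR adjusted p = 0.78). Ppp1r14a, an inhibitor of the phosphatase, differed by 0.36 with AAV9-GFP and by −0.43 with AAV9-Cardinal (edgeR adjusted p = 0.24 and edgeR adjusted p = 0.23) and did not pass. Between the viruses in TAC hearts 3 of the 9 had groups without overlap, against 6.77% of all genes. They were Ppp1cb (log2 0.17), Ppp1r14a (−0.60) and Rock2 (0.29), and none of the 3 passed (edgeR adjusted p from 0.082 to 0.17).

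Partners of the thick filament were mostly higher where they were called. Of 8 tested out of 11, 3 were higher and 1 lower with AAV9-GFP, against 17.4% of all genes called. With AAV9-Cardinal 4 were higher and 0 lower, against 6.48% of all genes. Mybpc2, the fast skeletal form of myosin binding protein C, rose from 8.99 to 28.5 CPM with AAV9-GFP (log2 1.66, SE 0.21, edgeR adjusted p = 9.4e-05) and from 8.42 to 17.3 CPM with AAV9-Cardinal (log2 1.03, SE 0.21, edgeR adjusted p = 0.012). Its cardiac counterpart Mybpc3 rose by 0.21 (edgeR adjusted p = 0.015) and 0.30 (edgeR adjusted p = 0.0064), and the M-band protein gene Myom1 by 0.23 (edgeR adjusted p = 0.0080) and 0.32 (edgeR adjusted p = 0.0044). Unc45b, a chaperone that folds the myosin motor, fell with AAV9-GFP from 137.9 to 111.9 CPM (log2 −0.30, edgeR adjusted p = 0.033) and was at 139.1 and 155.4 CPM with AAV9-Cardinal (log2 0.16, edgeR adjusted p = 0.33).

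Known regulators of the heavy chain genes were called in both directions. Of 16 tested out of 18, 3 were higher and 5 lower with AAV9-GFP, against 17.4% of all genes called. With AAV9-Cardinal 2 were higher and 5 lower, against 6.48% of all genes. Dio2, the deiodinase that makes active thyroid hormone, which favours Myh6 over Myh7, rose from 0.616 to 4.19 CPM with AAV9-GFP (log2 2.76, SE 0.33, edgeR adjusted p = 6.5e-05) and from 0.713 to 1.64 CPM with AAV9-Cardinal (log2 1.22, SE 0.35, edgeR adjusted p = 0.049). Rxra, the retinoid receptor that pairs with thyroid hormone receptors on DNA, fell by 0.32 (edgeR adjusted p = 0.0041) and 0.28 (edgeR adjusted p = 0.025). Mef2a, a transcription factor of muscle genes, fell by 0.46 (edgeR adjusted p = 0.0027) and 0.42 (edgeR adjusted p = 0.015). In the 5 lists of other genes around myosin, 0 genes were called by edgeR between the viruses, in TAC or in sham hearts.

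Some genes that mark cardiomyocytes were also lower in AAV9-GFP TAC hearts. Of 8 such markers 5 were lower and 1 higher after TAC with AAV9-GFP, against 17.4% of all genes called. With AAV9-Cardinal 1 was lower and 1 higher, against 6.48% of all genes. Pln, which encodes the brake of the calcium pump, fell from 4800 to 3383 CPM with AAV9-GFP (log2 −0.51, SE 0.054, edgeR adjusted p = 3.5e-05) and from 4871 to 3984 CPM with AAV9-Cardinal (log2 −0.29, SE 0.054, edgeR adjusted p = 0.0068). The summed list lay at 31600 to 34550 CPM in AAV9-GFP sham hearts and 26910 to 29560 CPM in AAV9-GFP TAC hearts, which did not overlap. In AAV9-Cardinal hearts it lay at 29840 to 32980 CPM and 30100 to 33120 CPM, which did. Of the markers not lower with AAV9-GFP, Tnnc1 rose (log2 0.15, edgeR adjusted p = 0.044), and Actc1 (0.12) and Ttn (0.00) did not pass. The part of cardiomyocyte number in the lower Myh6 and Myl2 of these hearts was not tested.

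Finally, the genes whose profile over the 16 mice was nearest to that of Myh7, by root mean square difference of centred log2 CPM among 14292 genes, were Pnkd (0.063), Rpl15, Camk2d, Slc4a2 and Gm7600 (0.066), against a spread of 0.080 for Myh7 itself. This is a description over the libraries, which share their scaling and depth. For Myl4, Vopp1 was nearest at 0.33, against a spread of 0.93 for Myl4, and Rnasek followed at 0.64, with Nrip2, Pus3 and Rps23-ps1 after it. Vopp1 shared with Myl4 the drop in AAV9-Cardinal sham replicate 3, with 38 counts there and at least 207 in each other mouse. For Myl7, with counts in 1 mouse, the nearest were Asap3 (0.46), Zfp13, Gprc5c, Slco2a1 and Pomk (0.49), a likeness that rests on that mouse.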

How the data were processed

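Heart apex RNA of 16 male mice (1 library per mouse) was analysed as 4 groups of 4 (AAV9-GFP or AAV9-Cardinal, sham or TAC). Nothing in the sources says more about litters or separate virus batches, so p-values measure the spread between these mice. The authors deposited 1 table of raw counts per gene. The submitters' processing notes name FastQC, HISAT2 2.1.0, edgeR 3.26.1 and the build GRCm38, and the counting program, its use of strand and its treatment of reads that match several places are not given in the sources used here. All 16 columns were used and 0 were left out. Of 55573 gene identifiers 55480 matched a symbol. Totals ran from 16441997 to 21904589 counts. The floor of 3 counts per library covers counting error only.

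Starting from the deposited counts, genes passing filterByExpr (16857) were scaled by TMM and tested with the quasi-likelihood test of edgeR 4.0.16 (R 4.3.3) in 1 fit of all 16 mice, with contrasts of group means, Benjamini-Hochberg adjustment over all tested genes and a threshold of 0.05. Fold changes are log2 values of that fit. CPM used TMM library sizes, and log2 CPM for permutation added a prior count of 2. Single genes and ratios were also tested by exact two-sided permutation of 4 against 4 mice (70 labelings), and differences in response by permuting virus labels within each surgery (4900 labelings). Ratios used counts per kilobase of the longest coding transcript, and the atrial ratios added 0.5 counts to each gene. Over the replicates of a group, chi-square per degree of freedom was 5.10 to 14.9, so no library was counted as a repeat of another. On simulated counts for TAC against sham in AAV9-GFP hearts (16655 genes, 200 changed) the fit recovered 83% of 2-fold and 44% of 1.5-fold changes, with 13 false calls, and 0 calls were made in a comparison without change. The changes were equally up and down and in far fewer genes than the 17.4% called in the real comparison. These rates may therefore not carry over, and the choice of scaling was not tested this way.

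The members, the gene lists and the tests were chosen with earlier results of these data known. All 9 members were named. From each other list the text names up to 4 genes averaging 1 CPM or more and the smallest p for TAC against sham with AAV9-GFP, plus any gene called between the viruses; locus genes, genes at 0, Rock2 and single markers were named after their values were seen. Alternatives were DESeq2 1.42.0, RLE factors, no filter, only the 8 mice compared, the replicate number as a block, no mitochondrially encoded genes, each mouse left out, a prior count of 0.5, and other ratio definitions. Library totals without TMM factors and the length of all annotated exons were added after seeing the data. Heavy chain coding sequences were aligned with Biopython 1.88, and microRNA sequences are from RefSeq (GRCm38.p6).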

Additional observations from a re-analysis of the deposited data

Results flagged for a closer look

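In 60 groups of 4 mice examined, 3 had a mouse whose gap to the nearest other, as a share of the group's range, exceeded Dixon's 95% critical value for 4 values. At a rate of 1 group in 20, chance would flag 3, but this is only a rough guide. The Myl7 groups with 0 in every mouse are among the 60 and could not be flagged. Both ratio flags below come from the same mouse and its 0 Myl4 counts. Myl7 stood at 0.4715 CPM (11 counts) in AAV9-GFP TAC replicate 1 and at 0 in the other 3 mice of that group. The same mouse held 4 counts of the atrial marker Sln, which was at 0 in the other 15 mice. It also held 3 counts of Bmp10, but Bmp10 was at 0 in only 13 mice and reached 0.196 CPM in AAV9-GFP sham hearts. A further atrial marker, Mybphl, was at 0 in all AAV9-GFP TAC hearts. The log2 ratio of Myl4 to Myl3 was −16.61 in AAV9-Cardinal sham replicate 3, against −11.15 to −10.95 in the other mice of the group. The log2 ratio of atrial to ventricular light chains was −16.75 in the same mouse, against −12.67 to −12.45. Both ratios rest on 0 Myl4 counts in that library, where the others held at least 15, so their size is set by the 0.5 counts added. Over all tested genes, 147 were at 0 in some mice and at 10 counts or more in all others.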

How the results depend on the processing

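The falls of Mylk3 in both virus groups and of Mylk4 with AAV9-GFP kept their direction and call in every alternative run except the replicate block, which lost Mylk3 with AAV9-Cardinal. Those of Myh6 and Myl2 with AAV9-GFP were lost with library totals alone, and that of Myl2 also without the filter (edgeR adjusted p = 0.061). Counts of 0 to 41 per library limited what could be seen for Myl4 and Myl7. The cause of the shifts below was not tested.

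DESeq2 gave 447 genes and 2 of the 8 members between the viruses in TAC hearts, 5 genes between them in sham hearts, and 145 for the difference in TAC response, against 17, 0, 2 and 2 with edgeR. Among the 447 genes 65.1% were higher with Cardinal, against 23.5% of the 17. Library totals alone gave 4901 genes for TAC with AAV9-GFP, 86.1% of them higher, and 76 between the viruses in TAC hearts; the share of higher calls with AAV9-Cardinal went from 47.8% to 65.95%. That scaling moved the median gene by −0.12 for the difference in response, turned Myl3 with AAV9-GFP to 0.10, and turned Myl4 and Mylk3 between the viruses in sham hearts to 0.00256 and 0.0156. No filter gave 615 genes for TAC with AAV9-Cardinal and 3 between the viruses in TAC hearts. Fitting only the 8 mice compared gave 2 members for TAC with AAV9-Cardinal and 3 genes between the viruses in TAC hearts. Leaving out mitochondrially encoded genes gave 30 there. With the length of all annotated exons the difference in response of the atrial to ventricular ratio turned to −0.44 (exact permutation p = 0.57). The ratio of Myl7 to Myl2 could give no value, since Myl7 was at 0 in 15 mice.

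Mice with the same number share only that number: correlations of their deviations ran from −0.04 to 0.21 over the pairs. With the replicate block, TAC with AAV9-Cardinal gave 31 genes and 0 members (Mylk3 −0.34, edgeR adjusted p = 0.17), the viruses differed in 0 genes after TAC and 1 after sham surgery, and 1 gene differed in response. TAC with AAV9-GFP gave 2091 genes and 4 members, with Myh7b in (−0.39, edgeR adjusted p = 0.0057) and Myl2 out (edgeR adjusted p = 0.053). Myh7b and Myl2 with AAV9-Cardinal turned to −0.15 and −0.0916. The Myh7 to Myh6 ratio stood at 0.36 and 0.24 in this paired form, which has no test.

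Leaving out 1 mouse at a time, TAC with AAV9-GFP gave 1962 to 3072 genes and 3 to 4 members, and with AAV9-Cardinal 384 to 1436 genes and 1 to 2 members. Between the viruses it gave 0 to 535 genes and 0 to 2 members after TAC, most without AAV9-Cardinal TAC replicate 1, and 1 to 3 genes and 0 members after sham surgery; the difference in response had 2 to 79 genes, 79 without the same mouse, and 0 members. The Myh7 to Myh6 ratio ran from 0.30 to 0.51 with AAV9-GFP, 0.15 to 0.18 with AAV9-Cardinal, −0.38 to −0.16 between the viruses after TAC, −0.05 to −0.02 after sham surgery and −0.35 to −0.13 for the difference in response. The atrial to ventricular ratio ran from 0.45 to 0.93, −0.16 to 1.27, −0.66 to −0.18, −1.002 to 0.43 and −0.90 to 0.53 in the same order. Signs also turned for members near 0: Myh7 (−0.0153 to 0.0375 in sham hearts, −0.0056 to 0.0472 with AAV9-Cardinal), Myl2 with AAV9-Cardinal (−0.0258 to 0.11), Mylk3 (−0.0565 to 0.0252) and Mylk4 (−0.0432 to 0.16) in sham hearts, and Myl4 (−0.35 to 0.0376 after TAC, −0.24 to 0.39 after sham surgery, −0.0892 to 0.54 with AAV9-Cardinal, −0.56 to 0.0714 in response).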

Other observations

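A further light chain gene outside the comparisons, singled out after its values were seen, was Myl12b, a nonmuscle regulatory chain and close paralog of Myl12a, with which it could share reads. It held 1686 counts (72.3 CPM) in AAV9-GFP TAC replicate 1 and 0 in the other 15 mice, and did not pass the filter. Myl12a lay between 328.4 and 587.7 CPM in all 16 mice, with 427.2 CPM in that mouse. It was the same mouse that held the Myl7 counts. Smyd1, a methyltransferase needed for thick filament assembly, also singled out afterwards, rose after TAC with AAV9-Cardinal (log2 0.23, edgeR adjusted p = 0.024) and stood at 0.07 with AAV9-GFP (edgeR adjusted p = 0.48). Myh8, chosen in the same way, the perinatal skeletal heavy chain, averaged 0.654 CPM in AAV9-GFP TAC hearts, where it ran from 0 to 0.986 CPM, and was at 0 in all mice of the other 3 groups. It held counts in 3 mice only and did not pass the filter. For TAC against sham with AAV9-GFP its exact permutation p was 0.14, so no difference was shown.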
